A study of Homo sapiens with 6 samples.

Results

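Of the 58051 genes counted in A172 cells, 10 that mark astrocytes, glial progenitors or mesenchymal glioblastoma were followed here, namely GFAP, AQP4, SLC1A2, SLC1A3, ALDH1L1, FABP7, NES, VIM, CD44 and CHI3L1. They were taken by symbol from a fixed set of names, chosen with earlier results of these data known, and each matched 1 Ensembl gene in all 6 libraries. A172 cells are an established line from a human glioblastoma, grown here in serum-containing medium. The comparison was between stable A172 lines that overexpressed RBFOX1, an RNA-binding protein that acts on splicing and mRNA stability, and control lines that overexpressed GFP, with 3 libraries of each. Both kinds of line were made by lentiviral transduction, so the controls carry a lentiviral construct too. Whether any line was a single clone is not given in the sources used here, and gene-level counts do not separate isoforms.

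Astrocytes are recognised by GFAP, an intermediate filament protein, by the water channel AQP4, by the glutamate transporters SLC1A2 and SLC1A3, and by the folate enzyme ALDH1L1. FABP7, a fatty acid binding protein, and NES, the intermediate filament protein nestin, mark radial glia and neural progenitors. Mesenchymal glioblastoma is known for high VIM, the filament protein vimentin, for CD44, the receptor for the matrix glycan hyaluronan, and for CHI3L1, a secreted chitinase-like glycoprotein also called YKL-40. The 6-base motif TGCATG is a site that RBFOX proteins bind, and it was searched for in the 3' UTR of each of these transcripts on the transcript strand only. Shorter or variant sites, and sites outside the 3' UTR, were not searched for.

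Of the markers that passed the threshold given below, CD44 and SLC1A2 held the motif in the 3' UTR of the canonical transcript (GENCODE release 44, GRCh38). Their sites are shown, with the motif in capitals and 10 flanking bases on each side. SLC1A2 was tested only through its 10 counts in RBFOX1 libraries, and its call was lost under several alternatives. Its sites are therefore shown as a description, and whether any site acts in these cells was not tested. The CD44 site lay on the plus strand at chr11:35230363-35230368, 1030 nucleotides after the stop codon, and the whole 3' UTR measured 3069 nucleotides. The 4 SLC1A2 sites lay on the minus strand of the same chromosome, in a 3' UTR of 9689 nucleotides, at chr11:35259517-35259522, chr11:35258153-35258158, chr11:35255296-35255301 and chr11:35251987-35251992.
CD44: acattaagttTGCATGacctgttatc
SLC1A2 site nearest the stop codon: cacagtgcctTGCATGcagtaggcag
SLC1A2 next site: aaatccaaaaTGCATGtagagttgac
SLC1A2 next site: tgggatacaaTGCATGgtctacaagg
SLC1A2 site farthest from the stop codon: atgttctgtgTGCATGttttgaatga
At least 1 TGCATG was found in 36.5% of the 14025 canonical 3' UTRs of protein-coding genes that were tested. Among those with a 3' UTR within 20% of the length of CD44's, 60.2% held one, and for the length of SLC1A2's it was 92.9%. GFAP and AQP4 held 1 site each. The canonical 3' UTRs of VIM, NES, CHI3L1, SLC1A3, ALDH1L1 and FABP7 held no TGCATG, and other forms of the site were not searched for.

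The counts on genes ranged from 7433414 in RBFOX1 replicate 1 to 23249221 in GFP replicate 1. Counts were scaled by TMM factors (edgeR) and are given as normalized counts, scaled to the geometric mean of the effective library sizes. A count of 3, taken as the limit that a count of 0 allows, was worth 1.73 to 5.16 normalized counts, which covers counting error only. RBFOX1 itself had 4, 0 and 1 counts in the GFP libraries and 10276, 16467 and 21451 in the RBFOX1 libraries (log2 fold change 13.55, adjusted p = 2.45e-23 by the quasi-likelihood test of edgeR). Its fold rests on the few GFP counts, and the log2 fold change was 14.73 without GFP replicate 1 and 13.16 to 13.58 without any other library. Read pairs that fell on more than one gene made up 8.89 to 9.35% in GFP and 6.89 to 7.94% in RBFOX1 libraries, and the part of this difference in the results was not tested. GFP replicate 1 stood apart from its group, since the chi-square of its counts, divided by the degrees of freedom, was 8.08 and 8.23 against the other GFP libraries and 1.60 between those.

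The 10 markers fell into distinct levels in A172 cells. NES, VIM and CD44 were abundant in all 6 libraries, CHI3L1 reached 391 counts or more in each RBFOX1 library and at most 16 in a GFP library, and GFAP, AQP4, SLC1A2, SLC1A3, ALDH1L1 and FABP7 had at most 6 counts in any library. Of the 7 markers tested, 3 were higher and 2 lower in RBFOX1 cells with an adjusted p under 0.05 in the quasi-likelihood test of edgeR, against a background of 46.7% of the 20536 genes tested, 23.7% higher and 22.9% lower. The normalized counts of the 2 conditions did not overlap in 6 of these 7 markers, SLC1A2 being the exception, and in 53.4% of all genes tested. SLC1A2 was tested only through its 10 counts in RBFOX1 libraries, so these counts are given as a description. NES and CHI3L1 rose, VIM and CD44 fell, and the call of SLC1A2 rested on few counts.

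**Figure D1:**
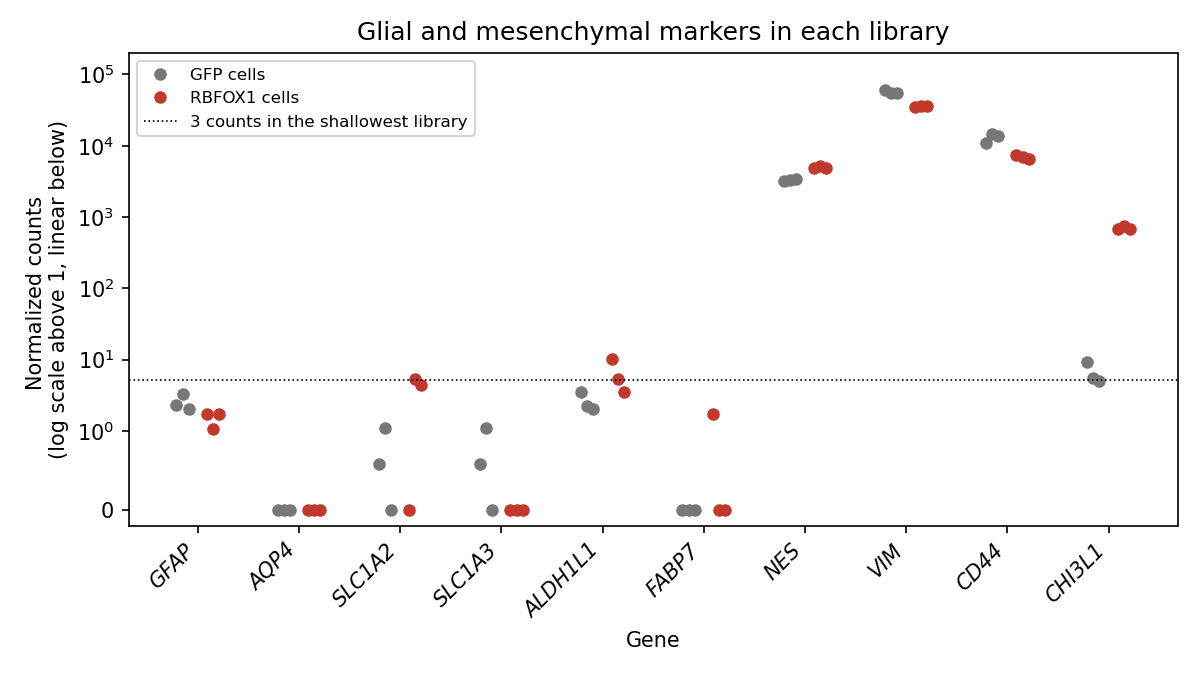
Normalized counts (y axis, logarithmic above 1 and linear below) of the 10 markers (x axis) in each of the 3 GFP libraries (grey) and 3 RBFOX1 libraries (red); the dotted line is the worth of 3 counts in the shallowest library. NES, VIM and CD44 lie far above the line in all libraries, CHI3L1 rises from 9.21 or less to at least 673, and the other 6 markers stay at or near the line.

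CHI3L1 (ENSG00000133048, chromosome 1, 203178931 to 203186704, minus strand) had 16, 5 and 5 counts in GFP replicates 1, 2 and 3 and 391, 702 and 794 counts in RBFOX1 replicates 1, 2 and 3. In normalized counts this was 9.21, 5.54 and 5.00 in GFP libraries and 673, 739 and 688 in RBFOX1 libraries. The 3 RBFOX1 libraries lay close to each other and far above all 3 GFP libraries. The mean rose from 6.58 ± 2.29 to 700 ± 34.9 (n = 3 each, ± SD), a log2 fold change of 6.60 (standard error 0.142, 95% interval 6.30 to 6.89, adjusted p = 6.12e-18), or 96.8-fold. The absolute change was larger than that of 99.8% of the genes tested. The GFP level rests on few counts, and with each library left out in turn the log2 fold change lay between 6.44 and 7.03.

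Genes related to CHI3L1 by sequence or by binding did not all move with it. CHI3L2, its closest chitinase-like paralog, had counts of 2, 3 and 3 under GFP and of 8, 10 and 28 under RBFOX1. It reached 10 summed counts only through its RBFOX1 libraries, so these counts are given as a description. Since no GFP library exceeded 3 counts, its fold is given as at least 6.03-fold higher, computed against 3 counts per library. The chitinase gene CHIT1 had no count in GFP and at most 2 counts in an RBFOX1 library, too few to be tested. IL13RA2, a decoy receptor for interleukin-13 that is known to bind CHI3L1, fell from 2326 ± 68.0 to 704 ± 25.5 normalized counts (n = 3 each, ± SD; log2 fold change -1.73, adjusted p = 1.75e-15). TMEM219, a membrane protein known to act with IL13RA2, fell too, with a log2 fold change of -0.55 (adjusted p = 1.15e-07). CHID1, a chitinase-domain gene, rose by a log2 fold change of 0.29 (adjusted p = 0.000428).

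VIM (ENSG00000026025, chromosome 10, 17228241 to 17237593, plus strand) ranked 10 among the genes tested by mean normalized count. It had 59651, 54350 and 55560 normalized counts in GFP replicates 1, 2 and 3 and 35403, 36091 and 36364 in RBFOX1 replicates 1, 2 and 3. Every RBFOX1 library lay below every GFP library, and the RBFOX1 libraries were nearly equal. VIM fell from 56520 ± 2778 to 35953 ± 495 normalized counts (n = 3 each, ± SD), a log2 fold change of -0.65 (standard error 0.0480, 95% interval -0.75 to -0.55, adjusted p = 6.56e-10), or 1.57-fold lower. Its share of all counts on genes was 0.405 to 0.446% in GFP and 0.276 to 0.281% in RBFOX1 libraries. Because VIM is measured in bulk RNA, fewer cells of a type and less RNA per cell cannot be told apart, here and for the other markers.

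CD44 (ENSG00000026508, chromosome 11, 35138882 to 35232402, plus strand) had 10846, 14443 and 13883 normalized counts in GFP replicates 1, 2 and 3 and 7379, 6988 and 6592 in RBFOX1 replicates 1, 2 and 3. GFP replicate 1 was the lowest of its group and still above every RBFOX1 library. CD44 fell from 13057 ± 1935 to 6986 ± 394 normalized counts (n = 3 each, ± SD), a log2 fold change of -0.90 (standard error 0.0776, 95% interval -1.06 to -0.74, adjusted p = 6.75e-09), or 1.87-fold lower. Its neighbour on the chromosome is SLC1A2, which is read from the opposite strand, ends 18802 bases from the end of CD44 and was at or near 0.

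NES (ENSG00000132688, chromosome 1, 156668763 to 156677407, minus strand) had 3150, 3304 and 3453 normalized counts in GFP replicates 1, 2 and 3 and 4841, 5271 and 4890 in RBFOX1 replicates 1, 2 and 3. All 3 RBFOX1 libraries lay above all 3 GFP libraries. NES rose from 3302 ± 152 to 5001 ± 235 normalized counts (n = 3 each, ± SD), a log2 fold change of 0.60 (standard error 0.0513, 95% interval 0.49 to 0.71, adjusted p = 6.08e-09), or 1.52-fold higher. NES and VIM, whose proteins assemble into the same filaments, moved in opposite directions.

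**Figure D2:**
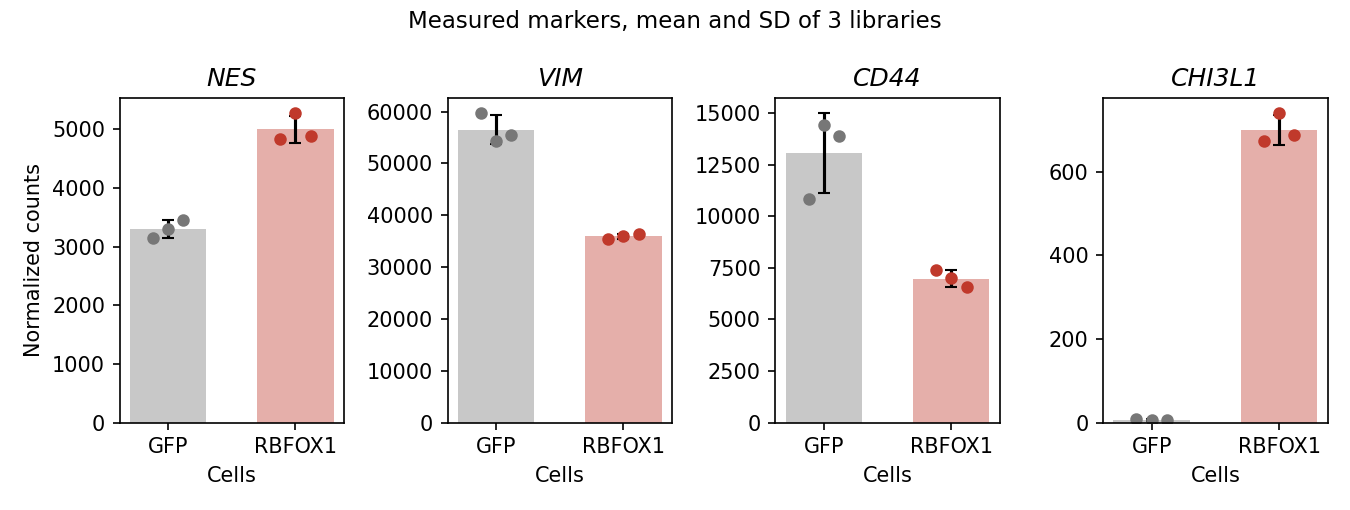
Normalized counts (y axis, linear from 0, separate scale for each gene) of NES, VIM, CD44 and CHI3L1 in GFP (grey) and RBFOX1 (red) cells; bars are means, error bars SD over 3 libraries, points single libraries. NES and CHI3L1 are higher and VIM and CD44 lower in all 3 RBFOX1 libraries.

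The 6 other markers were at or near the limit of detection. AQP4 (ENSG00000171885, chromosome 18, 26852043 to 26865771, minus strand) had 0 counts in all 6 libraries, which allows up to 0.0221 to 0.0660 RPKM (reads per kilobase of exon, scaled to library size) depending on the library. SLC1A3 (ENSG00000079215, chromosome 5, 36596588 to 36688334, plus strand) had 1, 1 and 0 counts in GFP and 0 in each RBFOX1 library. FABP7 (ENSG00000164434, chromosome 6, 122779716 to 122784074, plus strand) had 0 counts in each GFP library and 1, 0 and 0 in RBFOX1 replicates 1, 2 and 3. These 3 genes did not reach 10 counts summed over the libraries and were not tested, and no fold is given for them.

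GFAP (ENSG00000131095, chromosome 17, 44903159 to 44916937, minus strand) had counts of 4, 3 and 2 under GFP and of 1, 1 and 2 under RBFOX1. After normalization each RBFOX1 library lay below each GFP library, but the difference did not pass the threshold (log2 fold change -0.69, standard error 0.767, adjusted p = 0.510), and the ratio of the summed counts had a 95% counting interval of 0.136 to 2.16. ALDH1L1 (ENSG00000144908, chromosome 3, 126103562 to 126197994, minus strand) had counts of 6, 2 and 2 under GFP and of 6, 5 and 4 under RBFOX1 (log2 fold change 1.02, standard error 0.590, adjusted p = 0.174). In normalized counts its lowest RBFOX1 library (3.46) and its highest GFP library (3.45) were nearly equal.

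SLC1A2 (ENSG00000110436, chromosome 11, 35251205 to 35420063, minus strand) had 1, 1 and 0 counts in GFP replicates 1, 2 and 3 and 0, 5 and 5 counts in RBFOX1 replicates 1, 2 and 3. The groups overlapped, since RBFOX1 replicate 1, the shallowest library, had none. It passed the threshold narrowly (adjusted p = 0.0393), and the ratio of the summed counts was 6.78 with a 95% counting interval of 1.44 to 63.6. The call was lost with DESeq2 (adjusted p = 0.223), with limma-voom (0.0823) and with the replicate number as a block (0.111), and likewise without GFP replicate 1 (0.0871) or GFP replicate 3 (0.0932). Without RBFOX1 replicate 2 or 3 the gene had too few counts to be tested.

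Compared per length of exon, the markers were ordered VIM, CD44, NES and CHI3L1 in GFP cells, at 830 ± 40.8, 99.3 ± 14.7, 45.1 ± 2.07 and 0.149 ± 0.0518 RPKM (n = 3 each, ± SD). In RBFOX1 cells they were ordered VIM, NES, CD44 and CHI3L1, at 528 ± 7.27, 68.2 ± 3.21, 53.1 ± 2.99 and 15.8 ± 0.789 RPKM (n = 3 each, ± SD). Neighbours in both orders did not overlap in their libraries. With the longest transcript as the length, CD44 stayed above NES in RBFOX1 cells, at 97.7 ± 5.50 RPKM. With the union of exons, the CD44 to NES ratio of RPKM was 1.92 to 2.44 in GFP and 0.739 to 0.849 in RBFOX1 libraries. The other 6 markers lay at 0.0572 RPKM or less in every library, and their order was not resolved.

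The genes whose profile over the 6 libraries lay nearest to each measured marker were found among 11008 protein-coding genes by the Euclidean distance of centred log2 counts scaled to library size. Nearest to NES were BCLAF1, with a distance of 0.0512, and CPT1A, with 0.0528. Nearest to VIM were SLC12A9 (0.0401) and FAHD1 (0.0484), and nearest to CD44 were TBL1X (0.104) and the basement membrane gene NID1 (0.104). CHI3L1 had no such close neighbour, its nearest being the carboxypeptidase gene CPA1 (0.453) and the collagen gene COL11A1 (0.647). CPA1 had a mean of 0 and COL11A1 of 12.1 normalized counts in GFP cells. The measure uses the size of the change, so genes with a similar change lie near by construction. A value of 0.5 was added to the scaled counts before the log, which shrinks changes from near 0. CPA1 thus lay nearest to CHI3L1 with a fitted log2 fold change of 11.4 against 6.60. The genes compared had a mean of at least 50 normalized counts. CPA1, COL11A1 and CHI3L1 itself reached it only through their RBFOX1 libraries.

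Several filament genes had larger log2 fold changes than VIM and NES. Of 12 tested genes among 15 filament and filament-linking genes, 6 were higher and 3 lower, with a median log2 fold change of 0.44 against 0.0051 over all genes tested. The background for this and the later lists was 23.7% of all genes tested higher and 22.9% lower. NEFL, the neurofilament light chain gene otherwise typical of neurons, rose from 3745 ± 159 to 17227 ± 928 normalized counts (n = 3 each, ± SD; log2 fold change 2.20, adjusted p = 3.51e-17). The epithelial keratin partners KRT18 and KRT8 rose by log2 fold changes of 1.98 and 1.67 (adjusted p = 3.07e-17 and 3.03e-16). The annotation holds 68 pseudogenes named after KRT18 and 51 after KRT8, so reads of these genes may be split and their levels are uncertain. SYNM, whose protein synemin joins vimentin filaments, rose by 1.38 (adjusted p = 3.43e-12) and DES, desmin, by 0.89 (adjusted p = 3.63e-07). PLEC, whose protein plectin links filaments to other structures, fell by 1.04 on the log2 scale (adjusted p = 1.98e-12), and the nuclear lamin gene LMNA fell by 0.51 while LMNB1 rose by 0.82 (adjusted p = 1.45e-07 and 4.81e-10). The neurofilament genes INA, NEFM and NEFH had at most 1 count in any library.

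Over 12 cytoplasmic filament genes, VIM, NES and GFAP included, VIM made up 74.5, 72.8 and 72.8% of the summed RPKM in GFP replicates 1, 2 and 3 and 32.9, 32.6 and 32.6% in RBFOX1 replicates 1, 2 and 3. NEFL made up 5.91 to 6.74% in GFP and 19.8 to 21.5% in RBFOX1 libraries, and KRT8 and KRT18 together 15.2 to 15.7% and 40.4 to 42.1%. The share of NES was 3.66 to 4.21% in GFP and 4.08 to 4.42% in RBFOX1 libraries, and its ranges overlapped, since the summed RPKM itself rose from at most 1175 to at least 1581. All these shares used the union of exons as the length and depend on that choice. With the longest transcript, VIM was at 1025 rather than 528 RPKM in RBFOX1 cells, and NES was unchanged at 68.2. The shares were not computed with that length.

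**Figure D3:**
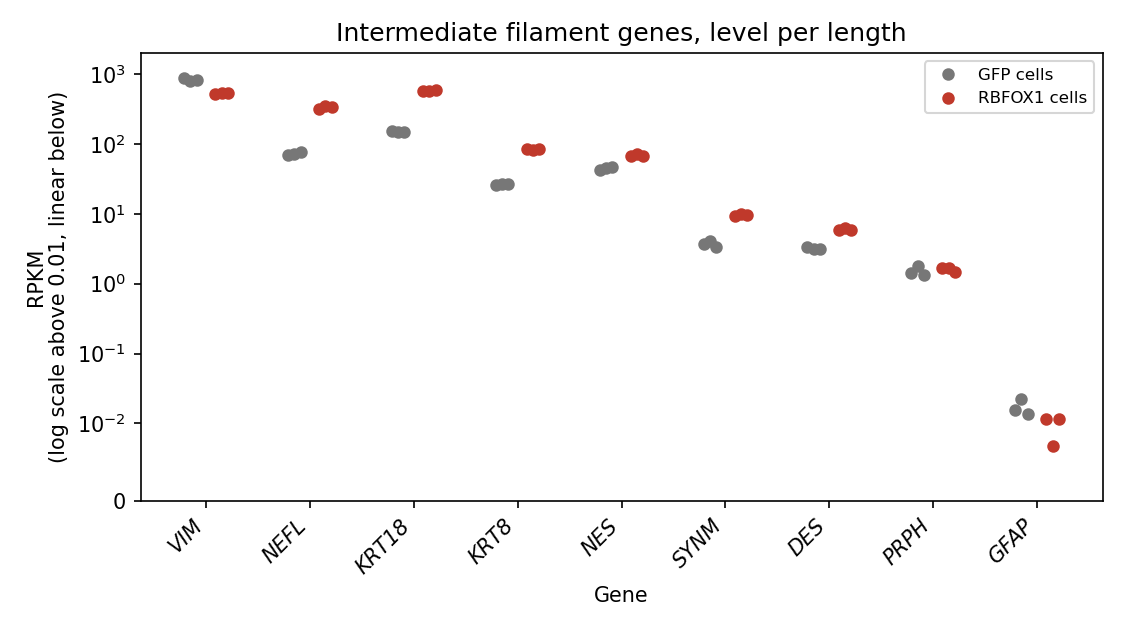
Level per length (y axis, RPKM over the union of exons, logarithmic above 0.01 and linear below) of 9 filament genes (x axis) in each GFP (grey) and RBFOX1 (red) library. VIM is lower and NEFL, KRT18, KRT8, NES, SYNM and DES higher in all RBFOX1 libraries, whereas PRPH overlaps and GFAP stays under 0.03.

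Other astrocyte markers included genes near 0 and genes that rose. Of 20 listed, 14 were tested, of which 8 were higher and 2 lower. The median log2 fold change was 0.69, or 0.50 when genes with no GFP or no RBFOX1 library above 3 counts were put at their bound. Among those higher, ACSBG1 had counts of 2, 1 and 0 under GFP and of 1, 6 and 4 under RBFOX1. ATP1B2 had 4, 2 and 1 under GFP and 3, 12 and 8 under RBFOX1. Both were tested only through their RBFOX1 libraries, so these counts are given as a description. With another filter on low counts (edgeR filterByExpr), 6 of the listed markers were higher and 2 lower. AGT, angiotensinogen, and GJA1, the gap junction protein connexin 43, rose by log2 fold changes of 1.85 and 1.17 (adjusted p = 1.57e-12 and 1.32e-12). GLUL, the glutamine synthetase of astrocytes, rose by 0.91 (adjusted p = 9.24e-12). SOX9, a transcription factor of the glial lineage, fell by 1.14 on the log2 scale (adjusted p = 1.52e-07), with a spread of 1140 ± 266 normalized counts (SD, n = 3) in GFP cells. S100B, GJB6, KCNJ10, SLC4A4 and HEPACAM had at most 3 counts in any library.

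Among the paralogs of the transporters, channel and binding protein, some that are not typical of astrocytes were measured where the markers were not. AQP1, another water channel, rose from 100 ± 4.62 to 490 ± 34.2 normalized counts (n = 3 each, ± SD; log2 fold change 2.29, adjusted p = 4.69e-14), while AQP4 had no count. FABP3, the heart-type fatty acid binding protein, rose by 3.46 on the log2 scale (adjusted p = 1.85e-12), while FABP7 had 1 count in all. FABP5 was listed at 0 in every library, but 16 pseudogenes are named after it and its reads may be lost to them. Of the SLC1 family, the neutral amino acid transporter gene SLC1A5 had 1617 ± 64.6 and 1637 ± 104 normalized counts in GFP and RBFOX1 cells (n = 3 each, ± SD; adjusted p = 0.881), and SLC1A4 rose by 0.26 (adjusted p = 0.000353).

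Of the 16 radial glia and progenitor markers, 12 were tested, with 4 higher and 4 lower and a median log2 fold change of 0.15. SOX2, a stem cell transcription factor, rose from 22.2 ± 4.37 to 125 ± 9.15 normalized counts (n = 3 each, ± SD; log2 fold change 2.53, adjusted p = 1.48e-10). TNC, the matrix protein tenascin-C, fell from 856 ± 70.0 to 67.8 ± 2.63 (log2 fold change -3.66, adjusted p = 1.09e-16). SALL2 and LIFR rose by 0.51 and 0.39 (adjusted p = 0.00136 and 2.66e-06). HES5, PTPRZ1 and HOPX had at most 2 counts in any library, as had FABP7.

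Genes of the mesenchymal glioblastoma type were found on both sides. Of 27 listed, 26 were tested, with 9 higher and 14 lower and a median log2 fold change of -0.32. SPP1, osteopontin and a CD44 ligand, fell from 2936 ± 112 to 270 ± 21.7 normalized counts (n = 3 each, ± SD; log2 fold change -3.43, adjusted p = 1.06e-18). TRADD, an adaptor of the TNF receptor, fell by 1.22 on the log2 scale (adjusted p = 2.83e-10). CCN2, connective tissue growth factor, rose from 1505 ± 255 to 5028 ± 47.7 (log2 fold change 1.75, adjusted p = 6.46e-13). The transcription factor genes of the list went both ways. STAT3, FOSL2, RUNX1 and CEBPD rose by log2 fold changes of 0.70, 0.83, 0.42 and 1.49 (adjusted p = 2.27e-09, 6.07e-11, 0.000179 and 1.25e-06), and the coactivator gene WWTR1 by 0.26 (adjusted p = 0.00422). BHLHE40 and RELB fell by 0.80 and 0.72 on the log2 scale (adjusted p = 1.21e-10 and 1.33e-06), and CEBPB had a log2 fold change of -0.13 (adjusted p = 0.136).

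Among the genes that make, cut or respond to hyaluronan with CD44, 15 of 18 were tested, with 5 higher and 6 lower and a median log2 fold change of -0.10. CEMIP, which degrades hyaluronan, rose from 32.4 ± 8.26 to 2590 ± 135 normalized counts (n = 3 each, ± SD; log2 fold change 6.34, adjusted p = 4.70e-20). HMMR, a hyaluronan-binding protein that also acts at the mitotic spindle, rose by 1.82 (adjusted p = 3.97e-14). The proteases MMP14, ADAM17 and ADAM10, which are known to cut CD44, fell by 1.37, 0.93 and 0.67 on the log2 scale (adjusted p = 1.20e-14, 3.14e-12 and 4.41e-09). The linkers of CD44 to actin differed, with EZR higher by 0.49, MSN lower by a log2 fold change of -0.33 and RDX at -0.029 (adjusted p = 1.03e-07, 3.86e-06 and 0.696). The hyaluronan synthase genes were low, HAS1 with no count, HAS2 with at most 3 counts in a library, and HAS3 with 4 to 18.

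**Figure D4:**
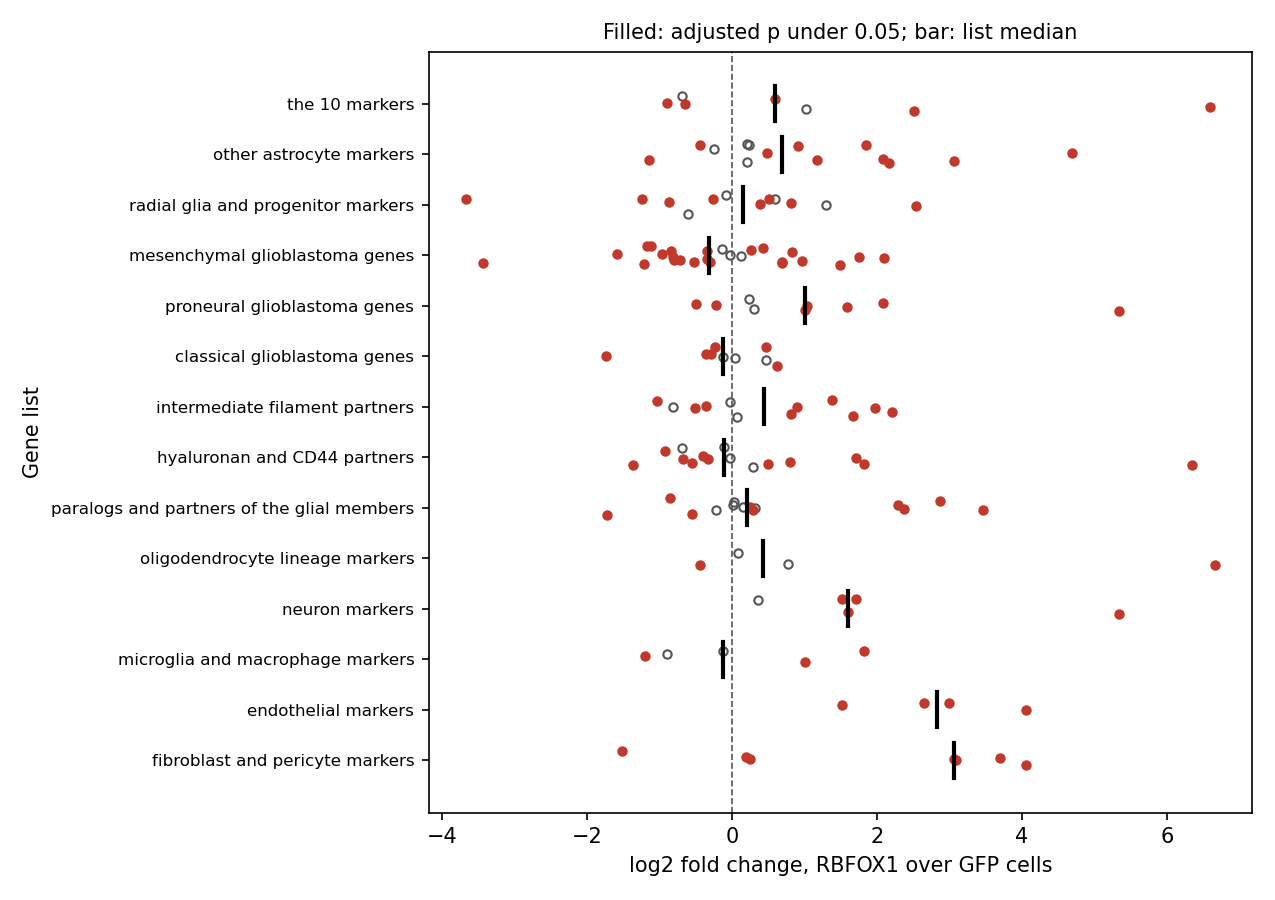
log2 fold change of RBFOX1 over GFP cells (x axis) for each tested gene of the 10 markers and of 13 other lists (y axis); filled points had an adjusted p under 0.05, black bars are list medians, and the dashed line is the median of all genes tested. Fitted values of genes with 3 counts or fewer in every GFP library depend on the prior count. The medians run from -0.32 for the mesenchymal list to 3.06 for the fibroblast and pericyte list.

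Markers of other cell types were read in the same libraries. Over all genes tested, 23.7% were higher and 22.9% lower. Some markers counted below as rising reached 10 summed counts only through RBFOX1 libraries, among them STMN2 in the neuron list and LUM in the fibroblast and pericyte list. Of 8 fibroblast and pericyte markers, 6 of the 7 tested rose and ACTA2 fell, with a median log2 fold change of 3.06, or 1.11 with LUM at its bound, and their summed level went from 79.0 to 83.9 RPKM in GFP to 394 to 424 RPKM in RBFOX1 libraries. COL1A1, RGS5 and COL3A1 rose by log2 fold changes of 4.06, 3.69 and 3.06 (adjusted p = 4.61e-15, 9.22e-18 and 7.82e-19), whereas DCN had at most 1 count in any library. The summed level gives most weight to abundant genes. COL3A1 went from a mean of 3668 to 30573 normalized counts, while COL1A1 and RGS5 reached 761 and 1377 in RBFOX1 cells. Of 5 endothelial markers, all 4 tested rose, TEK by 1.52 (adjusted p = 5.28e-10), from a summed 1.49 to 1.93 RPKM to 5.29 to 6.02 RPKM, and CLDN5 had at most 1 count. Of 9 neuron markers, 4 of the 5 tested rose, among them GAP43 and MAP2 by 1.71 and 1.52 (adjusted p = 1.55e-08 and 2.66e-09), from a summed 2.63 to 3.29 RPKM to 9.82 to 12.1 RPKM, whereas RBFOX3, SNAP25, ELAVL3 and ELAVL4 had at most 3 counts. Of 9 microglia and macrophage markers, 2 were higher and 1 lower among 5 tested, the summed level was 1.13 to 1.53 RPKM and 1.12 to 1.57 RPKM, and AIF1, TYROBP and P2RY12 had no count. Of 7 oligodendrocyte lineage markers, 1 was higher and 1, CSPG4, lower among 4 tested, the summed level was 51.9 to 57.9 RPKM and 48.2 to 52.9 RPKM, and MOG, MAG and MOBP had no count. The part of these genes in the change of VIM, CD44, NES and CHI3L1 was not tested.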

How the data were processed

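Stranded paired-end reads came from rRNA-depleted RNA of 3 GFP and 3 RBFOX1 A172 samples. The authors used HISAT2 for alignment (GRCh38) and HTSeq-count, intersection-strict, for gene counts on Ensembl release 87, which were deposited unnormalized. Read pairs on genes were 52.0 to 61.9% of the total, and the lines for other pairs were left out. The deposited table of the authors' DESeq2 comparison was not used.

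Here, counts were TMM-normalized and tested, two-sided, by the quasi-likelihood test of edgeR 4.0.16 in R 4.3.3 with condition as the only term. Genes under 10 summed counts were left out, adjustment was by Benjamini-Hochberg and the threshold was 0.05. DESeq2 1.42.0, limma-voom (limma 3.58.1), other scalings, other filters, a replicate block, a minimum log2 fold change of 1 and the omission of each library were alternatives. The procedure was tested on simulated data with the same dispersion for all genes and changes only in genes with a mean of at least 50 counts. Far fewer genes changed there than were called here, and changes in genes near 0 were not simulated. Intervals of count ratios are exact and conditional, and cover counting error only. Symbols (98.1% of identifiers matched), coordinates, lengths and 3' UTRs came from GENCODE release 44, later than the annotation counted on; RPKM used the union of exons. No other gene on the same strand overlapped an exon of a marker. Genes on the opposite strand overlapped exons of GFAP, SLC1A2, SLC1A3, ALDH1L1, VIM and CD44. For VIM, VIM-AS1 overlapped 656 exonic bases, and for GFAP, CCDC103 overlapped 2232. The effect of these overlaps on the counts was not tested.

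Named were the 10 markers, RBFOX1, up to 4 genes past the threshold with a mean of at least 50 normalized counts per list, by size of change, markers near 0, and the 2 nearest genes of each measured marker. That mean was taken over all libraries. SOX2, CEMIP, FABP3, GAP43 and COL1A1 had GFP means under 50 and reached it only through their RBFOX1 libraries. Other list genes, and the 12 filament genes summed, were chosen after their values were seen. Some genes that the rule would name are not reported here, though they remain in the list counts. The markers and lists were chosen with earlier results of these data known. The methods describe 3 biological replicates of each condition.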

Additional observations from a re-analysis of the deposited data

How the results depend on the processing

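The log2 fold changes of NES, VIM, CD44 and CHI3L1 kept their direction and their side of the threshold under all 14 alternatives, lying at 0.57 to 0.65, -0.69 to -0.60, -1.02 to -0.83 and 6.44 to 7.03. When a log2 fold change of 1 or more in size was asked for, 2 markers were higher and 0 lower in RBFOX1 cells. CHI3L1 and SLC1A2 stayed, SLC1A2 on few counts, whereas NES rose and VIM and CD44 fell by less than that. Of all genes tested, 12.7% passed in either direction. With DESeq2, 2 rather than 4 radial glia and progenitor markers were lower. With library size alone, 1 proneural gene rather than 2 was lower and 2 oligodendrocyte lineage markers rather than 1 were higher. Leaving out each library in turn gave 1 to 2 proneural genes lower, with 1 without GFP replicate 2, GFP replicate 3, RBFOX1 replicate 1 or RBFOX1 replicate 3. The cause was not tested. Over the scalings tried, the median log2 fold change of all genes stayed between -0.019 and 0.055. Deviations of same-numbered libraries from their group means correlated over genes with r = -0.18, 0.034 and -0.066, and those of differently numbered libraries with -0.17 to 0.19. The numbers thus gave no sign of pairing, though 3 libraries per group cannot decide whether pairs were prepared together. With the replicate block 2 markers were higher and 2 lower, SLC1A2 losing its call and no other marker changing its own. Genes at 6 counts or fewer per library could not be ranked or compared at this depth.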

Other observations

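Genes of the other glioblastoma types were also read. Of 15 proneural genes, 9 were tested, with 5 higher and 2 lower in RBFOX1 cells and a median log2 fold change of 1.01. SOX4, a developmental transcription factor, rose from 169 ± 13.9 to 712 ± 27.3 normalized counts (n = 3 each, ± SD; log2 fold change 2.08, adjusted p = 2.53e-14). STMN2, a neuronal microtubule regulator that is also in the neuron list, had 3 counts or fewer in each GFP library and was at least 25.9-fold higher. It was tested only through its RBFOX1 libraries. TCF4 rose by 1.03 (adjusted p = 9.54e-12), and OLIG2, a transcription factor among the listed markers of this type, fell from 117 ± 10.1 to 81.1 ± 10.7 normalized counts (n = 3 each, ± SD; log2 fold change -0.50, adjusted p = 0.00398). SOX11 passed the threshold with a log2 fold change of -0.22 (adjusted p = 0.0158), though its libraries overlapped between the groups. OLIG1, DCX and SOX10 had no count in any library.

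Of 10 classical genes, 9 were tested, with 2 higher and 4 lower and a median log2 fold change of -0.12. JAG1, a Notch ligand, fell from 869 ± 31.4 to 269 ± 50.6 normalized counts (n = 3 each, ± SD; log2 fold change -1.73, adjusted p = 2.88e-12). GLI2 and LFNG rose by 0.62 and 0.48 (adjusted p = 0.000583 and 3.50e-06) and PDGFA fell by 0.36 on the log2 scale (adjusted p = 0.000473). EGFR, whose amplification is typical of this type, did not pass the threshold, at 2341 ± 168 normalized counts under GFP and 2160 ± 267 under RBFOX1 (n = 3 each, ± SD; adjusted p = 0.178).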
